A study of Homo sapiens with 21 samples.

Results

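The NRF2 antioxidant and detoxification genes are 36 genes named by symbol, and 34 of them were measured among the 18374 genes on the arrays. AKR1B1 and FTH1 were not listed in the probe annotation and were not analysed here. Each measured member had 1 probe set. The list goes by symbol, and it was proposed with earlier results of these data known. The samples were U-87MG glioblastoma cells, a long-established human line, carrying empty vector (clones V8, V17 and V22) or stably expressing parkin (clones PK7, PK19 and PK25), all seeded at the same density and harvested after a day in culture. Parkin is a ubiquitin ligase of the mitochondrial quality control pathway, and its own transcript was not analysed here. The 21 arrays fell into 7 groups of 3: V8, V17 and V22 in a first array series, and V22 again with PK7, PK19 and PK25 in a second. The series were read from the prefixes of the array file names, so the split and its order are assumptions. Every clone is a single isolate of the line. The arrays of a clone may be repeats of the same culture or RNA, and p-values over arrays then measure only how much those arrays varied.

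NRF2, encoded by NFE2L2, is a transcription factor that KEAP1 holds in the cytoplasm and delivers to a CUL3 ubiquitin ligase for degradation. Oxidants and electrophiles modify cysteines of KEAP1, NRF2 then accumulates, pairs with a small MAF protein and binds antioxidant response elements. Its targets supply glutathione and NADPH, run the thioredoxin system, reduce quinones and carbonyls, conjugate electrophiles and handle heme and iron. In glioma and other tumours the pathway is known for resistance to oxidative stress and to alkylating drugs.

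The core of the antioxidant response element, TGACNNNGC, was looked for on both strands of the RefSeq start site windows (GRCh38.p14), which hold 250 bases before and 50 after a transcript start. Of the 28 members with a window, 10 (35.7%) had a match, in 11 of 39 windows (28.2%), against 13.3% of all 35097 windows. The other 8 members had no window and were not searched: AKR1B10, FTH1, GSR, HMOX1, PRDX1, PRDX6, SLC7A11 and SOD1. The sequences below are those of the 6 members with a match whose expression differed most from V22 in any clone, shown because the element is what defines the pathway in DNA. Capitals mark the match, which reads TGACNNNGC on the printed strand or its reverse complement GCNNNGTCA when it lies on the opposite strand. Each is written in the direction of transcription.
MGST1, chr12:16347135-16347163, 30 bases after the start: ggggacatcgTGACAAAGCaaattgtctg
TXNRD1, chr12:104215655-104215713, 99 bases before the start: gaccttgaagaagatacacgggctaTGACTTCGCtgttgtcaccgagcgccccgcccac
TXNRD1, chr12:104286905-104286963, 102 bases before another start: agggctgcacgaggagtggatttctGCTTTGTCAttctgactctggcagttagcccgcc
GCLM, chr1:93909431-93909489, minus strand, 34 bases before the start: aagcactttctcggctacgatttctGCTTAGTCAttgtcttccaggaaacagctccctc
CBR1, chr21:36069840-36069898, 159 bases before the start: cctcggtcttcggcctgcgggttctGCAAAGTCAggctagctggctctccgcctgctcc
GSTP1, chr11:67583721-67583779, 66 bases before the start: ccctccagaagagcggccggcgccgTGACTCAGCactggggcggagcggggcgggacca
EPHX1, chr1:225825251-225825309, 78 bases before the start: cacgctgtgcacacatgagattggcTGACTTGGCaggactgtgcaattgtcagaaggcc
The first TXNRD1 window held a further match 8 bases before its start, which is not printed. A match is a description of the letters in the window, and no binding was measured. MGST1, TXNRD1 and GCLM are among the members called below, whereas CBR1, GSTP1 and EPHX1 were called in no clone against V22.

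The comparison of each clone with V22 of its own series asked which members differed between a clone and the vector clone measured beside it. A member was called when the Benjamini-Hochberg adjusted p of limma over all 26947 probe sets was under 0.05 and the difference was at least 1.5-fold (0.585 on the log2 scale). In PK7, 7 of the 34 members were called higher and 0 lower (20.6%), where 3.55% of all probe sets were called higher and 3.76% lower. In PK19, 5 members were called higher and 0 lower (14.7%), against 3.77% and 4.04% of all probe sets. In PK25, 2 members were called higher and 0 lower (5.88%), against 0.267% and 0.416%. The vector clone V8 also had 2 members called higher and 0 lower, against 1.82% and 1.86%. In V17, limma called 0 members and 0% of probe sets higher and 0% lower. Most members are bright: 30 have a mean log2 intensity above 7, and among the 10763 probe sets above that level the share called higher was 4.74% for PK7, 4.26% for PK19, 0.372% for PK25 and 2.5% for V8.

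Most members lay slightly above V22, most of all in PK7. The median member was 0.29 higher than V22 on the log2 scale in PK7, 0.09 in PK19, 0.07 in PK25, 0.10 in V8 and 0.004 in V17, whereas the medians of all probe sets lay between -0.003 and 0.02. PK7 was above V22 for 26 of 34 members, PK25 for 23, V8 for 22, PK19 for 21 and V17 for 19. Of the 34 members, 24 were called in no clone against V22. AKR1C1 alone was called in all 3 parkin clones, AKR1C3, AKR1B10 and MGST1 were called in a pair of them, and GCLC, GCLM, CAT, NQO1 and HMOX1 in a single parkin clone each. PK7 had 4 members called without V22 set 5 or without PK7 set 1, V8 had 1 without V22 set 1, V22 set 2 or V8 set 2, and PK25 had 1 without V22 set 5, V22 set 6 or PK25 set 1. For these counts over several clones, and for those without single arrays, the share of all probe sets is not given here. Such counts do not set the members apart from other genes. The PK25 median was -0.02 without V22 set 5. Each array pools the cells of a clone, so a change in some cells and a change in every cell cannot be told apart.

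**Figure D1:**
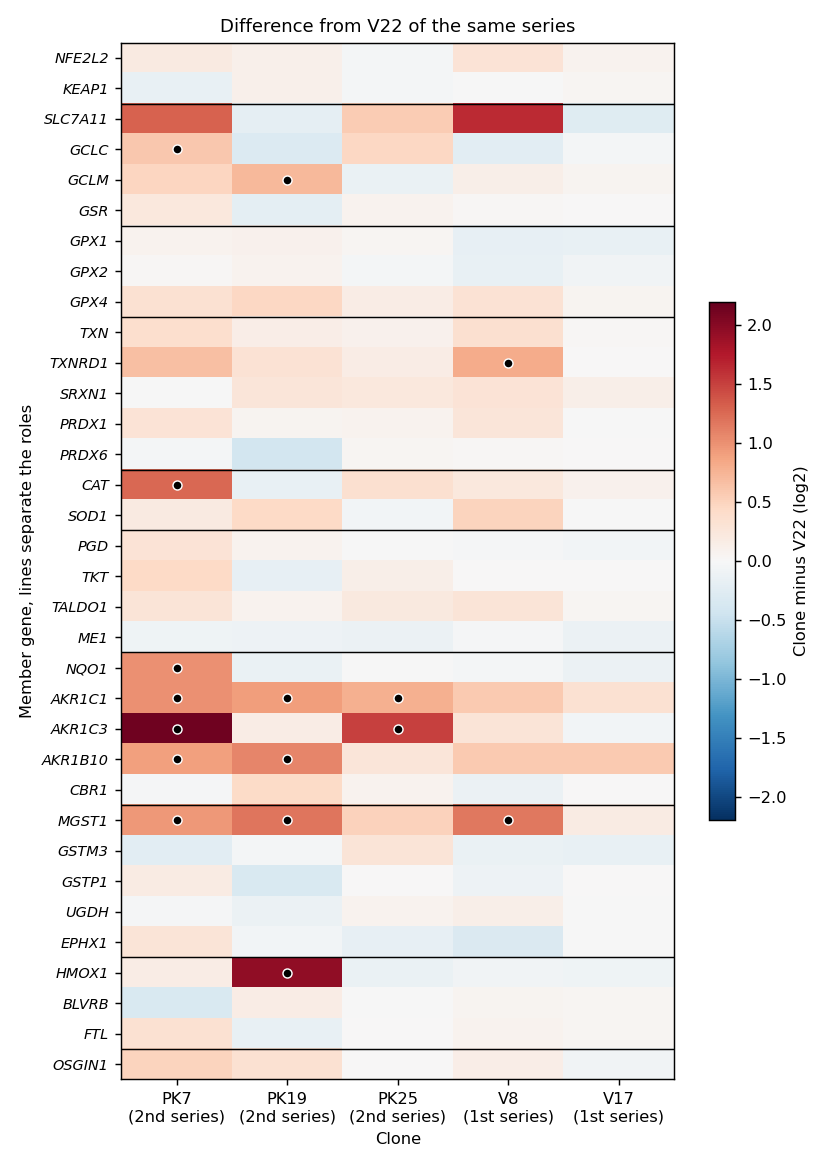
Colour shows the log2 difference of each clone from V22 of its series (x axis) for the 34 measured members (y axis, ordered by role), from the mean of 3 arrays each. Black dots mark calls, all of them higher: 7 in PK7, 5 in PK19, 2 in PK25, 2 in V8 and 0 in V17.

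The sensor and the transcription factor themselves were near level. In the second series NFE2L2 had a log2 intensity of 9.81 ± 0.07 in V22, 10.01 ± 0.05 in PK7, 9.92 ± 0.05 in PK19 and 9.76 ± 0.13 in PK25 (SD, n = 3 arrays each). In the first series it was 9.85 ± 0.16 in V8, 9.63 ± 0.12 in V17 and 9.55 ± 0.07 in V22. The differences from V22 were 0.30 in V8 (adjusted p = 0.0665), 0.20 in PK7 (0.183), 0.11 in PK19 (0.619) and -0.05 in PK25 (0.904), none of them called. KEAP1 had group means of 9.31 ± 0.18 in V22 of the second series, 9.14 ± 0.14 in PK7, 9.43 ± 0.18 in PK19 and 9.26 ± 0.10 in PK25, with differences of -0.17, 0.12 and -0.05 (adjusted p = 0.492, 0.716 and 0.932). Intensities report transcripts, and the amount of NRF2 protein, which KEAP1 controls, was not measured on these arrays.

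Among the genes that supply glutathione, the 2 subunits of glutamate-cysteine ligase, the rate-limiting enzyme of its synthesis, were called in different clones. GCLC, the catalytic subunit, stood at 10.10, 9.47 and 10.02 on the PK7 arrays and at 9.50, 8.82 and 9.51 on the V22 arrays of the second series. The 2 groups overlapped, with the middle array lowest in each. The difference was 0.59 (SE 0.18, adjusted p = 0.0278), and the call was lost without V22 set 5 (0.36, adjusted p = 0.193), PK7 set 1 (0.47, 0.127) or PK7 set 3 (0.51, 0.107). GCLM, the modifier subunit, stood at 8.34, 8.14 and 8.46 in PK19, above the V22 arrays at 7.65, 7.50 and 7.65, and rose by 0.71 (SE 0.14, adjusted p = 7.78e-04). PK7 arrays of GCLM at 8.19, 7.80 and 8.23 were also all above V22, with a difference of 0.48 that was under the fold minimum. In PK25, GCLM was at 7.68, 7.32 and 7.34, a difference of -0.15 from V22. GSR, which returns oxidised glutathione to its reduced form, differed from V22 by 0.23 in PK7 and -0.22 in PK19.

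SLC7A11, the cystine importer of the same group, varied most between arrays of a clone, and is described here after its values were seen. Its arrays read 9.63, 6.90 and 9.61 in V22 of the second series, 10.47, 9.14 and 10.41 in PK7, 9.13, 7.22 and 9.19 in PK19, and 10.10, 7.77 and 9.97 in PK25. In each of these clones the middle array was the lowest by far. The SD over the 3 arrays of a group ranged from 0.54 to 1.57. The fitted differences were 1.64 in V8 (adjusted p = 0.230), 1.30 in PK7 (0.311), -0.20 in PK19 (0.936) and 0.57 in PK25 (0.833), and none was called. Glutathione peroxidases, which spend glutathione on peroxides, were near level: GPX1 differed from V22 by -0.19 to 0.09 over the 5 clones and GPX2, a dim gene at a mean of 4.59, by -0.17 to 0.08. GPX4, the peroxidase of membrane lipids, was above V22 by 0.34 in PK7 (adjusted p = 0.0190), 0.46 in PK19 (0.0018) and 0.32 in V8 (0.0408), each under the 1.5-fold minimum.

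In the thioredoxin and peroxiredoxin group no member was called in a parkin clone. TXNRD1, the reductase that keeps thioredoxin reduced, stood at 11.70, 11.46 and 11.23 in V8, above the first-series V22 arrays at 10.62, 10.74 and 10.60. That rise was 0.81 (SE 0.23, adjusted p = 0.0314), and leaving out any of 5 of the 6 arrays gave 0.69 to 0.85 with adjusted p of 0.0609 to 0.119. PK7 showed 0.67 for TXNRD1 (adjusted p = 0.0535), with arrays at 11.95, 11.41 and 11.91 against 11.37, 10.51 and 11.38 in V22. The 2 TXNRD1 windows printed above belong to different starts, and a single probe set does not separate transcripts from them. TXN, thioredoxin itself, differed from V22 by 0.37 in PK7 and 0.35 in V8. SRXN1, which repairs overoxidised peroxiredoxins, was within 0.31 of V22 in all 5 clones. PRDX1, an abundant peroxide-reducing enzyme, differed by 0.30 in PK7 and 0.27 in V8. PRDX6, a peroxidase that also acts on phospholipids, was 0.40 below V22 in PK19 (adjusted p = 0.0024), under the fold minimum.

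CAT, the catalase that splits hydrogen peroxide in peroxisomes, was called in PK7 alone. Its arrays read 9.38, 9.84 and 9.30 in PK7, 8.69, 8.58 and 8.49 in PK25, 8.03, 8.14 and 8.06 in PK19 and 8.28, 8.10 and 8.33 in V22. All PK7 arrays were above every other array of the study. CAT rose by 1.27 in PK7 (SE 0.13, adjusted p = 9.69e-07, 2.41-fold), and the difference from V22 was 0.35 in PK25 and -0.16 in PK19. SOD1, the cytosolic superoxide dismutase, was above V22 by 0.45 in PK19 and 0.49 in V8, neither called. Genes of NADPH supply through the pentose phosphate pathway lay between -0.18 and 0.44 in the parkin clones, with TKT at the upper end in PK7 and PGD at 0.30 there. ME1, the NADP-dependent malic enzyme, was at a mean of 3.12, which is brighter than only 8.17% of probe sets, and gives no reading of its change.

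The group that reduces quinones, aldehydes and ketones held the most calls: 4 of its 5 measured members in PK7, 2 in PK19 and 2 in PK25. AKR1C3, an aldo-keto reductase acting on steroids, prostaglandins and lipid aldehydes, had arrays at 10.48, 10.57 and 10.40 in PK7 and at 9.83, 9.84 and 9.84 in PK25. PK19 arrays at 8.35, 8.76 and 8.39 overlapped those of V22 at 8.42, 8.10 and 8.50, and the 9 first-series arrays lay between 7.73 and 8.87. AKR1C3 rose by 2.14 in PK7 (SE 0.20, adjusted p = 3.25e-07, 4.41-fold) and by 1.496 in PK25 (SE 0.20, adjusted p = 4.30e-04, 2.82-fold), and its difference in PK19 was 0.16. Over the 6 clone means AKR1C3 had an SD of 0.92, larger than for 99.28% of probe sets.

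AKR1C1, the paralog that reduces progesterone and lipid aldehydes, differed in all 3 parkin clones. Its arrays stood at 7.82, 8.00 and 8.03 in PK7, at 8.04, 7.68 and 7.89 in PK19 and at 7.82, 7.70 and 7.69 in PK25, all above V22 at 7.20, 6.78 and 6.86. The rises were 1.01 in PK7 (adjusted p = 9.07e-05), 0.92 in PK19 (1.83e-04) and 0.79 in PK25 (0.0111), each with an SE of 0.15. The PK25 call was lost without V22 set 5 (0.71, adjusted p = 0.0733), V22 set 6 (0.75, 0.067) or PK25 set 1 (0.75, 0.0557). V8 arrays of AKR1C1, at 6.87, 7.61 and 7.42, spread from the V22 level towards that of the parkin clones. V22 had the lowest clone mean of AKR1C1. The vector clones V8 and V17 also lay above V22, by 0.57 and 0.34, and neither was called. AKR1C1 and AKR1C3 lie on chromosome 10 beside AKR1C2, whose sequence is nearly that of AKR1C1, so how the signal is shared between AKR1C1 and AKR1C2 is uncertain. The 19 nearest measured genes around them had a median difference from V22 of 0.37 in V8, -0.05 in PK7, 0.19 in PK19 and 0.23 in PK25.

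NQO1, the quinone reductase most often used as a readout of NRF2, was called in PK7 alone. Its arrays read 12.20, 11.87 and 12.08 in PK7, 11.31, 10.56 and 11.28 in V22, 11.18, 10.29 and 11.23 in PK19 and 11.21, 10.69 and 11.21 in PK25. The PK7 arrays were above all others of the study, and the middle array was the lowest in each of these 4 clones. NQO1 rose by 1.00 in PK7 (SE 0.28, adjusted p = 0.0164, 2-fold), and the call was lost without V22 set 5 (0.75, adjusted p = 0.108) or PK7 set 1 (0.93, 0.058). The differences in PK19 and PK25 were -0.15 and -0.01. AKR1B10, a retinal and aldehyde reductase, is dim here with a mean of 5.92. It rose by 0.91 in PK7 (SE 0.29, adjusted p = 0.0400) and 1.07 in PK19 (adjusted p = 0.0146), from arrays at 6.79, 5.89 and 6.72 and at 6.69, 6.24 and 6.98 against 5.73, 5.54 and 5.41 in V22. Without 1 array the PK7 call of AKR1B10 was lost in 5 of 6 cases (0.74 to 0.99, adjusted p = 0.0616 to 0.154), and the PK19 call without V22 set 6 (1.00, 0.0624) or PK19 set 3 (0.91, 0.0845). The vector clones V8 and V17 also lay above V22 for AKR1B10, by 0.58 each (adjusted p = 0.296 and 1), just under the fold minimum and not called. CBR1, a carbonyl reductase, was 0.42 above V22 in PK19 and was not called.

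**Figure D2:**
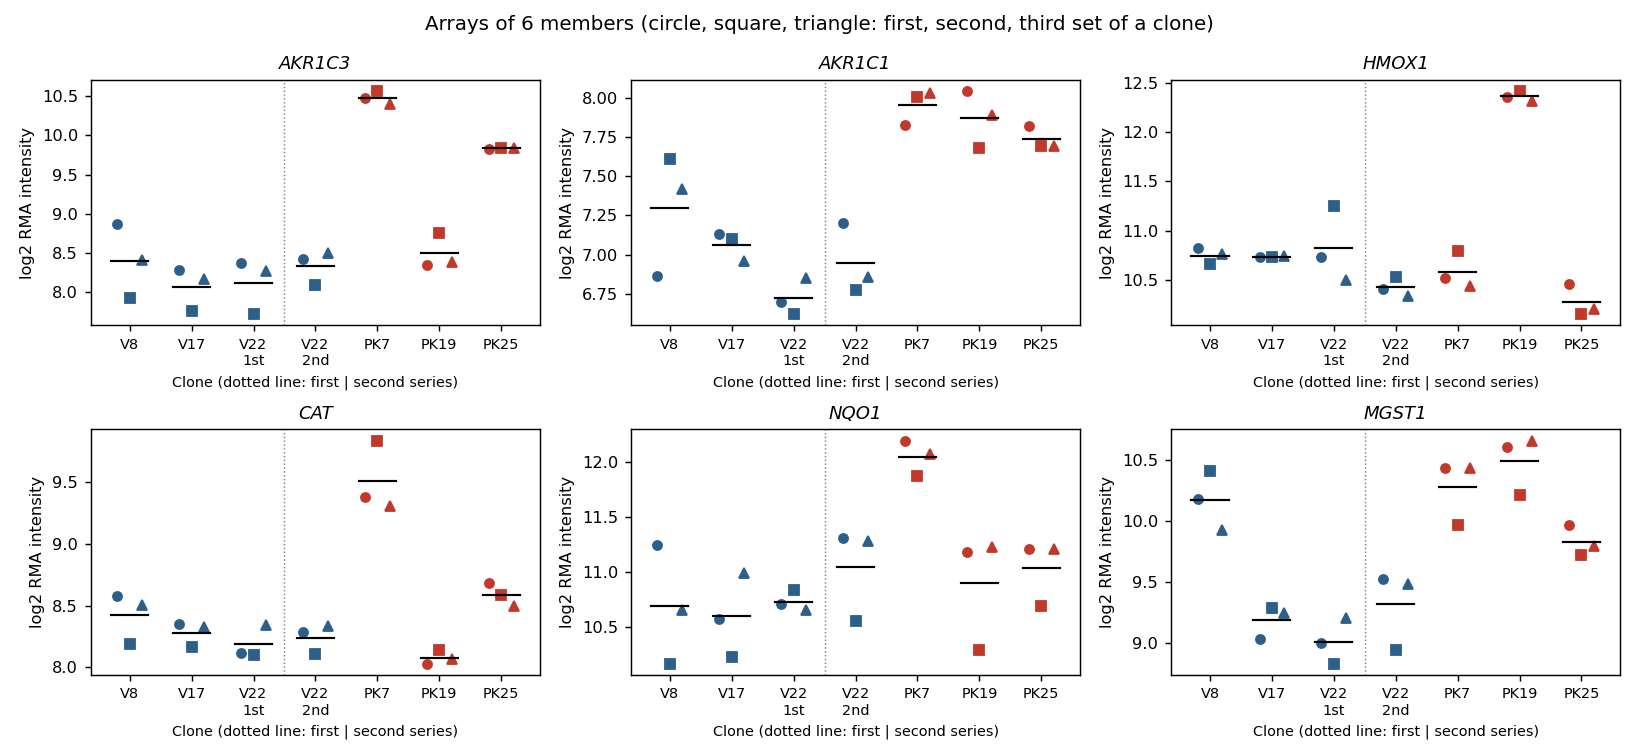
Log2 RMA intensity (y axis) of AKR1C3, AKR1C1, HMOX1, CAT, NQO1 and MGST1 on each of the 21 arrays, by clone (x axis, red for parkin and blue for vector), with symbols for the sets and a bar for the mean of 3 arrays. AKR1C3 stands out in PK7 and PK25, HMOX1 in PK19, CAT and NQO1 in PK7, and MGST1 in PK7, PK19 and V8.

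MGST1, a membrane-bound glutathione transferase and peroxidase, was called in 2 parkin clones and in a vector clone. Its arrays read 10.44, 9.97 and 10.44 in PK7, 10.61, 10.22 and 10.66 in PK19 and 9.97, 9.73 and 9.80 in PK25, against 9.53, 8.95 and 9.49 in V22. In the first series V8 read 10.19, 10.41 and 9.93 against 9.00, 8.83 and 9.21 in V22. MGST1 rose by 0.96 in PK7 (adjusted p = 4.87e-04), 1.17 in PK19 (4.96e-05) and 1.16 in V8 (1.94e-04), each with an SE of 0.17, so the vector clone lay in the range of the parkin clones. Its 20 nearest measured neighbours on chromosome 12 had medians of 0.69 in V8, 0.29 in PK7, 0.22 in PK19 and 0.32 in PK25, and their part in the MGST1 values was not tested. Neighbours of TXNRD1, on the same chromosome, had a median of 0.36 in V8.

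The other conjugation and hydrolysis genes were called in no clone against V22. GSTP1, a cytosolic glutathione transferase with arrays between 11.07 and 11.83, was 0.33 below V22 in PK19. GSTM3, another glutathione transferase, was dim at a mean of 3.54. UGDH, which makes the UDP-glucuronic acid used in glucuronidation, stayed within 0.13 of V22 in all 5 clones. EPHX1, the microsomal epoxide hydrolase, was 0.28 above V22 in PK7 and 0.31 below it in V8.

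HMOX1, heme oxygenase 1, which opens the heme ring and frees its iron, was called in PK19 alone. Its arrays read 12.36, 12.42 and 12.32 in PK19, against 10.40, 10.53 and 10.34 in V22, 10.52, 10.79 and 10.44 in PK7 and 10.46, 10.15 and 10.20 in PK25. The 9 first-series arrays lay between 10.50 and 11.25, so no other array came within a log2 unit of PK19. HMOX1 rose by 1.94 in PK19 (SE 0.14, adjusted p = 5.97e-09, 3.85-fold), the most of any member in that clone. The 20 nearest measured genes on chromosome 22 had a median of 0.01 in PK19. BLVRB, biliverdin reductase B, was 0.34 below V22 in PK7 and 0.16 above it in PK19. FTL, the ferritin light chain, at a mean of 12.21, was 0.34 above V22 in PK7 and 0.16 below it in PK19. OSGIN1, a growth inhibitor induced by oxidative stress, was above V22 by 0.49 in PK7 and 0.34 in PK19, and neither difference was called.

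The parkin clones were then compared with each other, which does not involve V22. PK7 exceeded PK19 in 5 members and was lower in 1 (3.8% of all probe sets were called higher and 3.78% lower). The 5 were GCLC (0.88, SE 0.18), CAT (1.43, SE 0.13), TKT (0.62, SE 0.14), NQO1 (1.15, SE 0.28) and AKR1C3 (1.98, SE 0.20), and the member lower in PK7 was HMOX1 (-1.78, SE 0.14). TKT, transketolase, fell under the fold minimum without PK19 set 2 (0.54). Against PK25, PK7 was higher in 4 members and lower in 0 (4.02% and 2.45% of probe sets): GCLM (0.63), CAT (0.92), NQO1 (1.01) and AKR1C3 (0.64). Of those, the AKR1C3 call was lost without any of the 6 arrays (0.60 to 0.69, adjusted p = 0.0612 to 0.116). NQO1 lost its call without PK7 set 1 (0.94, adjusted p = 0.0593) or PK25 set 2 (0.84, 0.0774). GCLM lost it without PK7 set 1, PK7 set 3, PK25 set 2 or PK25 set 3 (0.55 to 0.57). Counted afresh over the 34 members, the number higher or lower in PK7 was 1 without PK7 set 1, and 2 without PK7 set 3, PK25 set 2 or PK25 set 3. The share of all probe sets called in those fits is not given here. With the run of array file numbers as a block, an alternative described below that was added after the data were seen, 7 members were called between PK7 and PK19 (7.69% of probe sets) and 5 between PK7 and PK25 (6.6%). The members that joined were SLC7A11 in the first comparison (1.496, adjusted p = 9.78e-04) and AKR1B10 in the second (0.64, adjusted p = 0.0401).

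PK19 exceeded PK25 in 3 members and was lower in 2 (4.18% and 3.33% of probe sets). HMOX1 (2.10), GCLM (0.87) and MGST1 (0.66) were higher in PK19, and GCLC (-0.74) and AKR1C3 (-1.34) were lower. MGST1 lost its call without PK19 set 1 (0.61, adjusted p = 0.0503) or PK19 set 3 (0.58, 0.0612). The run block called 7 members (7.59% of probe sets), with AKR1B10 (0.81, adjusted p = 0.0121) and SLC7A11 (-0.77, 0.0436) joining the 5. GCLC and GCLM therefore ran opposite ways between PK19 and PK25, although their products form a single enzyme. The 20 nearest measured genes around GCLC on chromosome 6 had a median difference from V22 of -0.54 in PK19 and -0.09 in PK25. Around GCLM on chromosome 1 the medians were -0.14 and -0.06. Their part in the GCLC and GCLM values was not tested. Of the 34 members, 15 were highest in PK7, 10 in PK19, 6 in V8, 2 in PK25, 1 in V22 and 0 in V17, over series-adjusted clone means. The same count over all probe sets is not given here, so these numbers do not set the members apart from other genes.

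PK7 was also set against V8, each relative to V22 of its series. This contrast was chosen with earlier results of these data known. PK7 had the largest list median of the parkin clones, and V8 was a vector clone that also differed from V22. The p-values of this contrast are therefore not independent of that choice. PK7 was higher in 3 members and lower in 0 (2.35% and 1.94% of probe sets): AKR1C3 by 1.86 (SE 0.29, adjusted p = 4.71e-04), CAT by 1.03 (SE 0.18, adjusted p = 0.00208) and EPHX1 by 0.59 (SE 0.16, adjusted p = 0.0382). V22 itself differed between the series in 0 members, with 0.0148% of probe sets called higher in the first series and 0.00742% lower. Its largest member difference was that of SLC7A11 (-1.42, SE 0.75, adjusted p = 0.618).

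The comparison of parkin with vector took the 6 clones as replicates, 3 against 3, with the first series adjusted through V22. No member was called by limma (smallest adjusted p = 0.306), and 1 probe set of 26947 was, or 0.00371%. At an unadjusted p under 0.05 there were 2 members, AKR1C1 and AKR1C3, where 14.1% of all probe sets passed. The clone means of the parkin and vector groups lay apart for 2 members, both higher in parkin, AKR1C1 and GPX1 (5.88%). That share was below the 12.3% of probe sets apart and higher, and 0 members were apart and lower against 10.9%. AKR1C1 averaged 7.85 ± 0.11 in parkin clones and 7.25 ± 0.29 in vector clones (SD, n = 3 clones), a difference of 0.60 (SE 0.15). GPX1 averaged 9.14 ± 0.03 and 8.96 ± 0.10, a difference of 0.18 (SE 0.08).

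The members with larger mean differences rested on 1 or 2 parkin clones. AKR1C3 differed by 1.19 (SE 0.47), with clone means of 10.48 in PK7, 9.84 in PK25 and 8.50 in PK19, the last below V8 at 8.62. HMOX1 differed by 0.71 (SE 0.51), with clone means of 12.37 in PK19, 10.58 in PK7 and 10.27 in PK25. The vector clones lay between 10.33 and 10.42. NFE2L2 and KEAP1 each differed by -0.04 (SE 0.11 and 0.09). The members' median was 0.11, and it was 0.03 without PK7.

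**Figure D3:**
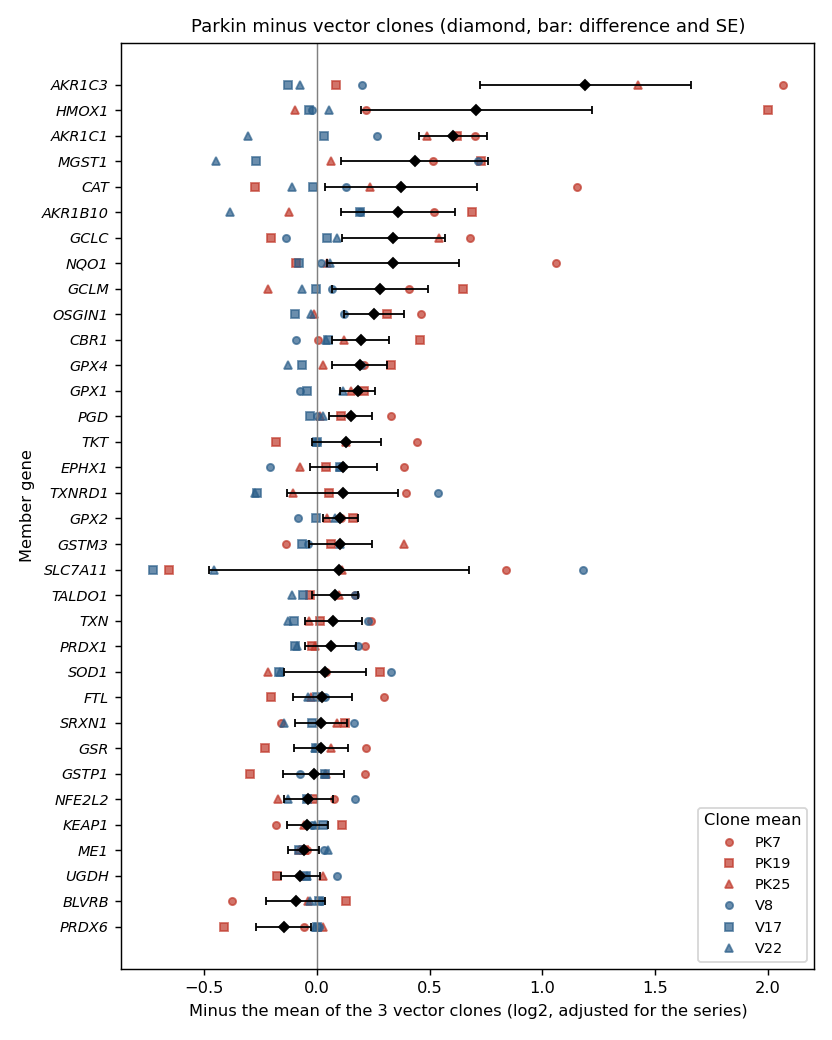
Black diamonds give the parkin minus vector difference (x axis, log2) of each of the 34 members (y axis) with its SE, and coloured symbols the 6 clone means relative to the mean of the vector clones. AKR1C1 and GPX1 are the 2 members in which every red symbol lies right of every blue symbol.

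Many members shared a low array within the clones of the second series, a pattern examined after it was seen. Array file numbers order the arrays of each series into 3 runs with 1 array of every clone, and the second run of the second series holds set 2 of the parkin clones and V22 set 5. The labels do not tie V22 set 5 to the parkin sets. On that run 15 of 34 members (44.1%) had their lowest array in all 4 clones, where 4.78% of all probe sets did. None had its highest array there in all 4, where 6.01% of probe sets did. The 15 were KEAP1, SLC7A11, GCLC, GCLM, GSR, TXN, TXNRD1, SRXN1, PRDX1, PGD, TKT, TALDO1, NQO1, MGST1 and OSGIN1, spanning glutathione supply, the thioredoxin system and NADPH supply. In the first series 4 members (11.8%) were lowest on the second run in all 3 clones, against 9.73% of probe sets.

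The size of the set-to-set difference was largest for SLC7A11. Its second-run array minus the mean of the clone's other arrays was -2.72 in V22, -1.30 in PK7, -1.94 in PK19 and -2.27 in PK25. Between clones its fitted differences from V22 in this series were -0.20 to 1.30. For TXNRD1 the same difference was -0.86, -0.52, -0.45 and -0.65 in the order V22, PK7, PK19 and PK25, for SRXN1 -0.45, -0.66, -0.55 and -0.51, and for NQO1 -0.74, -0.27, -0.92 and -0.52. HMOX1 and CAT did not share the pattern: HMOX1 gave 0.15, 0.31, 0.08 and -0.18 in the same 4 clones, and CAT gave -0.20, 0.50, 0.09 and -0.01. No test was made of these differences, and what the runs were (cultures, extractions or hybridisations) is not given in the labels.

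Differences from V22 were also taken within runs. SLC7A11 was above V22 in 3 of 3 runs in PK7, by 0.84, 2.24 and 0.81, and in PK25, by 0.46, 0.87 and 0.36, but by -0.50, 0.32 and -0.42 in PK19. With the run as a block, an alternative added after the pattern was seen, 9 members were called in PK7 (7.53% of probe sets in either direction), SLC7A11 (adjusted p = 0.00253) and TXNRD1 (0.00194) joining the 7. That fit called 5 members in PK19 and 2 in PK25, where it called 7.87% and 0.575% of probe sets. AKR1C1, MGST1 and AKR1B10 were above V22 in 3 of 3 runs in all 5 other clones, vector clones included. In PK7, 23 of 34 members were above V22 in every run, where 24.8% of all probe sets were, and 4 were below it in every run, where 25.4% were. The members above and below in every run numbered 13 and 3 in V8 (19.6% and 19.7% of probe sets), 5 and 2 in V17 (17.1% and 9.74%), 16 and 7 in PK19 (23.7% and 24.3%) and 14 and 1 in PK25 (15.8% and 16.2%).

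**Figure D4:**
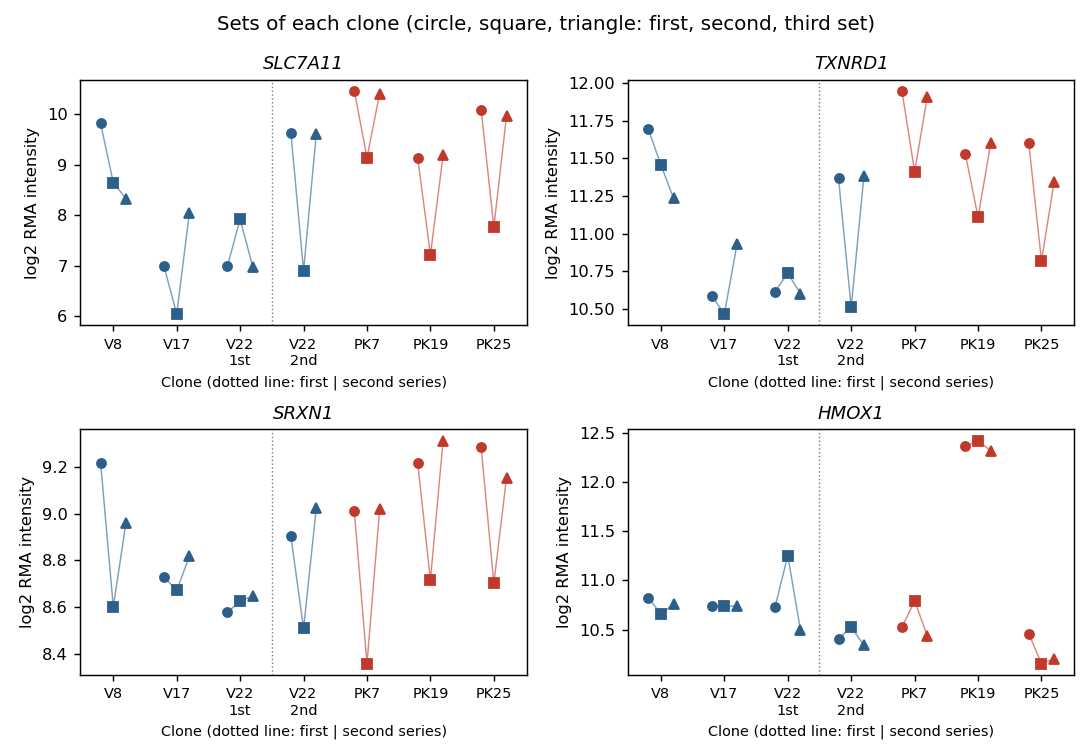
Log2 RMA intensity (y axis) of SLC7A11, TXNRD1, SRXN1 and HMOX1 in each set of each clone (x axis, in set order), joined by lines. In the second series the square (set 2, V22 set 5) is the lowest point of every clone for SLC7A11, TXNRD1 and SRXN1, whereas HMOX1 has it lowest in PK25 alone.

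A further 44 of 49 listed genes around the pathway were measured, 10 of them regulators and 34 further antioxidant and detoxification genes. They were called higher in 10 cases and lower in 2 in PK7, 9 and 3 in PK19, 3 and 0 in PK25, 5 and 2 in V8, and 0 and 0 in V17. In PK7 that is 22.7% higher and 4.55% lower, where 3.55% and 3.76% of all probe sets were. The shares were 20.5% and 6.82% in PK19 (3.77% and 4.04% of all probe sets) and 6.82% and 0% in PK25 (0.267% and 0.416%). In V8 they were 11.4% and 4.55% (1.82% and 1.86%). Their median differences were 0.08, 0.09, 0.06, 0.03 and 0.003. Among regulators, SQSTM1, the autophagy adaptor that can draw KEAP1 away from NRF2, rose by 0.66 in PK7, and RBX1, a subunit of the CUL3 ligase, fell by 0.60 there. In PK19, NFE2L1, the relative of NRF2, rose by 0.65 and MAFG, a small MAF partner, fell by 0.66.

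Named here are 6 further genes that differed at least 2-fold from V22 in a parkin clone. AKR1C2, the close paralog of AKR1C1, rose by 2.36 in PK7, 1.05 in PK25, 0.85 in PK19 and 1.09 in V8. ABCC2, an export pump for glutathione conjugates, rose by 2.28 in PK7, 1.27 in PK25 and 1.25 in V8, and fell by 0.83 in PK19. That put both higher in the vector clone V8 as well. SOD2, the mitochondrial superoxide dismutase, rose by 1.82 in PK7, 1.14 in PK19 and 1.06 in V8. ABCC3, a related pump, rose by 1.02 in PK7 and 1.03 in PK19. GLRX, glutaredoxin, rose by 1.25 in PK19, where GSTA4, a transferase for lipid aldehydes, fell by 1.03.

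The glioma identity of the cells was checked with fixed marker genes. VIM was between 12.50 and 12.89 over the 7 groups, CD44, TNC and S100A6 were also bright, and GFAP, the astrocyte marker, was low at 6.11 to 6.54. Of the macrophage and blood markers PTPRC, ITGAM, CD14, AIF1 and HBB were dim, and CD68, a lysosomal protein, was bright at 11.08 to 11.52. The mean of the 6 glioma markers lay between 10.02 and 10.58 over the groups, of the 6 macrophage and blood markers between 5.58 and 5.75, of 5 endothelial between 5.38 and 5.68, of 4 epithelial between 4.89 and 5.02 and of 4 neuronal between 5.86 and 6.56. Beside the member calls in PK19, the neuronal genes SYT1 and SNAP25 were called 1.48 and 1.33 higher than V22 there, whereas the other neuronal markers, RBFOX3 (-0.15) and STMN2 (0.13), were not called. The glioma marker CD44 (0.90) and the endothelial marker TEK (-0.91) were also called in PK19. In PK7, CHI3L1, a secreted protein of mesenchymal glioma, was 3.83 higher and was the only one of the 25 markers called. Its arrays read 11.38, 13.04 and 11.44 in PK7 and 7.68, 8.92 and 7.77 in V22 of the second series. In V22 of the first series they read 10.14, 9.62 and 10.02, so CHI3L1 also varied within V22. The other glioma markers in PK7 differed from V22 by 0.49 for CD44, 0.04 for GFAP, -0.21 for VIM, -0.24 for S100A6 and -0.54 for TNC. Their part in the member values was not tested.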

How the data were processed

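Total RNA of U-87MG clones was hybridised to Affymetrix whole-transcript gene arrays, per the labels. The authors deposited RMA intensity values on a linear scale (RMA is named in the submitters' processing notes without a version), and they were used as log2 values, with no missing values, no identical arrays and array medians of 6.21 to 6.37. Arrays have no counted depth, so their number limits the precision. RMA shrinks differences of dim probe sets. Of the 26947 probe sets, 19305 had 1 symbol, 1750 several and 5892 were not listed.

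limma 3.58.1 in R 4.3.3 was fitted to all 21 arrays in 7 groups (a shared spread), or to 6 clone means, with p-values adjusted over all probe sets. It was tested on simulated data with independent noise on each array and no run effect, so that test does not cover the low second run. Figures were drawn with matplotlib 3.10.9 in Python 3.11.15. For clone means, the V22 difference between the series was subtracted from the first series. Set numbers were not used to pair arrays in the main fits. Correlations of array deviations from their group means were 0.0591 to 0.216 within a set number in the first series. Between different set numbers they were -0.141 to 0.0533, so there every same-set pair was the more alike. In the second series, between parkin clones, the ranges overlapped, at -0.0917 to 0.381 within and -0.365 to 0.323 between set numbers. The main fits leave such pairing out.

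The members, the lists and the rule for named genes were chosen with earlier results of these data known. The rule gave in full up to 12 members called against V22, those with clone means apart, NFE2L2 and KEAP1, and up to 6 other pathway genes at 2-fold or more. SLC7A11 falls outside it. Run blocks, the fit without the second run, and chromosomal neighbours were added after the data were seen. Neighbours were the nearest measured genes with a mean log2 above 7 in RefSeq's GRCh38.p14 order.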

Additional observations from a re-analysis of the deposited data

Results flagged for a closer look

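The differences below are listed because the contrast between the clones was itself called by limma at 2-fold or more. Between PK7 and PK19 these were CAT (1.43), NQO1 (1.15), AKR1C3 (1.98) and HMOX1 (-1.78), all on the log2 scale. Between PK7 and PK25 it was NQO1 (1.01), and between PK19 and PK25 AKR1C3 (-1.34) and HMOX1 (2.10). Between PK7 and V8, each relative to V22, a contrast chosen with earlier results known, they were CAT (1.03) and AKR1C3 (1.86). The groups hold 3 arrays, too few to tell whether a single array is an outlier. Arrays were left out 1 at a time. Of the differences listed between parkin clones, only NQO1 between PK7 and PK25 then lost its call, without PK7 set 1 or PK25 set 2. For PK7 against V8, single genes were not followed in this way.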

How the results depend on the processing

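Over all alternatives, 724 of 821 values kept their direction and side of the threshold or moved within the spread, as did 96 of 102 added later. No called difference changed sign, but uncalled medians did: PK25 without V22 set 5, PK19 against PK25 without PK19 set 1 or PK25 set 2 (-0.003 and -0.012), and V17 without V17 set 3 (-0.0314) or with quantile normalization (-0.0173). Members called without a fold minimum numbered 13 in PK7 (15.2% of probe sets), 8 in PK19 (14%), 5 in V8 (8%), 12 for PK7 against PK19 (15.8%) and 9 for PK19 against PK25 (14.9%). At 2-fold they numbered 4 in PK7 (2.3%), 3 in PK19 (2.89%), 1 in PK25 (0.193%), 1 in V8 (0.98%), 1 for PK7 against PK25 (2.05%) and 2 for PK19 against PK25 (2.61%). For the counts that follow, the share of all probe sets called by the same fit is not given here. They therefore cannot be set against the rest of the arrays. With only the compared arrays PK25 had 1. Without the second run V8 had 4 and V22 between the series 2. Leaving out 1 array gave 4 to 10 members in PK7, 1 to 2 in PK25 and in V8 and 1 to 5 for PK7 against PK25, and a PK25 median of -0.0233 to 0.12. Parkin against vector had 0 called members, but 2 with arrays as observations and clone as a random block (AKR1C1 0.63, adjusted p = 0.0137). It had 12 with a replicate block by set number, which also took arrays as observations and left out the series adjustment (AKR1C1 0.82, adjusted p = 4.86e-04). This last fit dropped the V22 arrays of the second series, so all its vector arrays were first series and all its parkin arrays second. Its calls cannot be told apart from a difference between the series. The set-number replicate block gave 2 members in V8, 7 for PK7 against PK19, 5 for PK7 against PK25 and 7 for PK19 against PK25, within 1.5 times of the reported counts. For PK7, GCLC was no longer called with centred arrays (0.54) and AKR1B10 with centred (0.86) or quantile-normalized arrays (0.86). The cause of these changes was not tested. ME1, GSTM3 and GPX2 lay among the dimmest 30% of probe sets, where differences are least reliable.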
